A study of Mus musculus with 12 samples.

Results

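The 36 genes described here encode membrane transporters that carry nutrients and ions across the enterocyte, the absorptive cell of the small intestine, together with Slc9a3r1, the scaffold protein NHERF1 that anchors several of them. They are a fixed list of gene names, 36 of the 21853 protein-coding genes of the GENCODE M21 annotation, chosen with earlier results of these data known. All 36 were found by symbol. Histone modifications were mapped in the crypts and the villi of the mouse small intestine by ChIP-Rx, a form of ChIP-seq with a foreign spike-in, here 5% of Drosophila S2 chromatin. Each of the 8 peak lists used, for H3K4me3, H3K4me1, H3K27me3 and H3K9me3 in both compartments, comes from 1 library, so differences between the compartments could not be set against replicate error and no test was made. Villi were scraped off with coverslips and crypts were released with EDTA and mechanical disaggregation. No genotype, strain, age, sex or treatment is given in the labels, which name the tissue compartment and the antibody, and the paper's methods do not say whether the ChIP chromatin of several mice was pooled.

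Crypts hold the stem cells and dividing progenitors of the epithelium and villi hold mostly mature enterocytes. Transport by the enterocyte is polarized. Carriers of the brush border take up sugars, peptides, amino acids, phosphate, metals and vitamins, in many cases together with sodium or protons, and other carriers of the basolateral membrane release them to the blood. Chloride secretion, for which chloride enters the cell by way of the cotransporter encoded by Slc12a2 and leaves through Cftr, is known mainly from crypts. H3K4me3 marks promoters of genes in use, H3K4me1 flanks them and marks enhancers, H3K27me3 is the mark of Polycomb repression and H3K9me3 that of constitutive heterochromatin.

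The promoter sequences of 6 members on which the comparisons below turn are shown because the width, position or presence of their peaks differed between crypts and villi. Each is a window from 250 bases before to 50 bases after the gene start in RefSeq on GRCm38.p6, 5′ to 3′ on the strand of the gene, with every CG dinucleotide in capitals.
Slc15a1, chromosome 14, 121505205 to 121505504, minus strand: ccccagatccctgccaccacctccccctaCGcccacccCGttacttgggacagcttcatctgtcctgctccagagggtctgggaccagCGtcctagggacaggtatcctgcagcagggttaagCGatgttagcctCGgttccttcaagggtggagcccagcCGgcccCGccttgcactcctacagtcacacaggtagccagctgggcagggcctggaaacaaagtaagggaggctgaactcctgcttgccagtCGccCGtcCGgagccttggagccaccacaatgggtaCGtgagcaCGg
Slc27a4, chromosome 2, 29802384 to 29802683, plus strand: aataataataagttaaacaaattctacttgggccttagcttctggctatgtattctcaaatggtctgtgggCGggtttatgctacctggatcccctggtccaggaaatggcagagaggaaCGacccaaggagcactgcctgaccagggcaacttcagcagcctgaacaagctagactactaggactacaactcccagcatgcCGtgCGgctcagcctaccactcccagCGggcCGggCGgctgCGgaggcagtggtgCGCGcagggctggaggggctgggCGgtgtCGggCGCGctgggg
Slc9a3r1, chromosome 11, 115163091 to 115163390, plus strand: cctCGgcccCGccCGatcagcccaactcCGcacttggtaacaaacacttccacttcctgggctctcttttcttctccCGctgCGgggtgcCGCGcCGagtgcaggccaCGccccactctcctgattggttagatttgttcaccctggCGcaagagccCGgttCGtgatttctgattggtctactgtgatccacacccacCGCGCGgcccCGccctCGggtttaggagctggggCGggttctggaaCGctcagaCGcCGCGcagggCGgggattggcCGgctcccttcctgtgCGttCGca
Slc34a2, chromosome 5, 53049103 to 53049402, plus strand: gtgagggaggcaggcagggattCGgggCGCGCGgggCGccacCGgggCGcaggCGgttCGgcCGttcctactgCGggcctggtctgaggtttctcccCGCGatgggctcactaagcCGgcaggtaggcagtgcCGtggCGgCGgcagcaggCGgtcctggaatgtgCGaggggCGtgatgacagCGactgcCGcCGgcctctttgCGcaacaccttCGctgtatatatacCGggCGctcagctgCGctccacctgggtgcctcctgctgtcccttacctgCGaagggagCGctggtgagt
Slc2a1, chromosome 4, 119108495 to 119108794, plus strand: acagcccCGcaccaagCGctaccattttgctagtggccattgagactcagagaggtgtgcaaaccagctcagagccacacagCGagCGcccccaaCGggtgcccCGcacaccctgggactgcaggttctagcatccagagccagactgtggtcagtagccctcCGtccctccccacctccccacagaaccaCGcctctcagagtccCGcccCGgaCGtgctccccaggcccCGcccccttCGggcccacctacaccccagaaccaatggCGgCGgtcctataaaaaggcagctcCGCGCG
Slc30a10, chromosome 1, 185454598 to 185454897, plus strand: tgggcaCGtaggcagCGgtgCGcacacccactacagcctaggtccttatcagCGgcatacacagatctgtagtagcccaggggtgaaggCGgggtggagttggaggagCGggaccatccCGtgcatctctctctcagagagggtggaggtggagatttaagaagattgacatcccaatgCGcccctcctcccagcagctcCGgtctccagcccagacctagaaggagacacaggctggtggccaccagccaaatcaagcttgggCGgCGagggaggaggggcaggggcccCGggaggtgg

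The 6 windows differed in CG content. Those of Slc15a1 and Slc30a10 hold 12 CG each, that of Slc27a4 holds 14, that of Slc2a1 holds 18, that of Slc9a3r1 holds 27 and that of Slc34a2 holds 30. All 300 bases of the Slc15a1, Slc9a3r1, Slc34a2 and Slc2a1 windows lay under an H3K4me3 peak in crypts and in villi. H3K4me1 peaks covered the whole Slc2a1 window in villi and none of it in crypts, whereas for Slc30a10 and Slc34a2 they covered all 300 bases in crypts and none in villi. Of the 36 members, 29 had a window in the RefSeq table, and 25 of these 29 windows touched an H3K4me3 peak in crypts and 25 in villi. The same share was not counted over all genes, so this count has no background. The median window of the members held 14 CG, as did the median of the 16515 windows of all genes.

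Promoters of all 36 transporters carried an H3K4me3 peak in crypts and again in villi, where a promoter is the stretch within 1 kb of a protein-coding start site and 1 shared base counts as an overlap. The background was 57.7% of protein-coding genes in crypts and 57.9% in villi. Of the 335 other solute carrier genes, 224 in crypts (66.9%) and 222 in villi (66.3%) had such a peak. No transporter had the H3K4me3 call in crypts only or in villi only, against a background of 1.06% and 1.27%. Over the gene region, which is the gene body joined with its promoter windows, the count was again 36 in both compartments, with a background of 60.1% in crypts and 60.5% in villi. The promoter count rests on any annotated start. With the 5′ end of each gene alone it was 31 in each compartment. A peak covered a start site itself at 33 members in crypts and 32 in villi, against 12140 and 12041 of 21853 genes. With backgrounds of 1.06% and 1.27%, a count of 0 in 1 compartment only is no result about the members. With only the top 50% of each list by score, 7 members had the call in villi only and 1 in crypts only, and within 500 bp of the start 2 had it in villi only. The shares over all genes at these other settings are not given, so these counts cannot be set against a background.

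H3K4me1 was called at the promoters of 32 transporters in crypts (background 57.9%) and 33 in villi (background 56.1%), and 30 had it in both. Slc9a3 and Slc27a4 had it in crypts only (2 genes, background 5.69%), and Slc15a1, Slc4a4 and Slc12a2 in villi only (3 genes, background 3.95%). The crypts call of Slc27a4 rested on 77 bases and was lost at an overlap of 200 bp, where Slc16a1, with 469 bases in crypts and 145 in villi, became crypts only instead. Slc28a2 had no H3K4me1 peak at its promoters or in its body in either list. Over the gene region, 35 members carried H3K4me1 in crypts (background 65.2%) and 35 in villi (background 64.6%), so the 5 genes whose promoter call differed all kept the mark within the gene.

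H3K27me3 was rare at the transporters. It was called at the promoter of 1 member in crypts (background 13.1%) and of 2 in villi (background 16.1%). Slc30a10 had it in crypts only (1 gene, background 0.631%), and Slc2a1 and Slc12a2 had it in villi only (2 genes, background 3.62%). Extending the search to the gene region added no member, with 1 in crypts (background 15.1%) and 2 in villi (background 19.1%). The same genes also carried H3K4me3, which gave 1 promoter with both marks in crypts (background 6.59%) and 2 in villi (background 7.87%). With only the top 50% of each list these counts were 0 and 0, and with a window of 500 bp or an overlap of 200 bp the count in villi was 1. The villi list holds 13797 H3K27me3 peaks and the crypts list 7611, and over the 335 other solute carriers the promoter count went from 55 (16.4%) in crypts to 73 (21.8%) in villi. H3K9me3 was called at 0 promoters of members in crypts (background 0.38%) and 0 in villi (background 0.311%). It was also called over 0 gene regions in crypts (background 2.93%) and 0 in villi (background 2.39%).

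**Figure D1:**
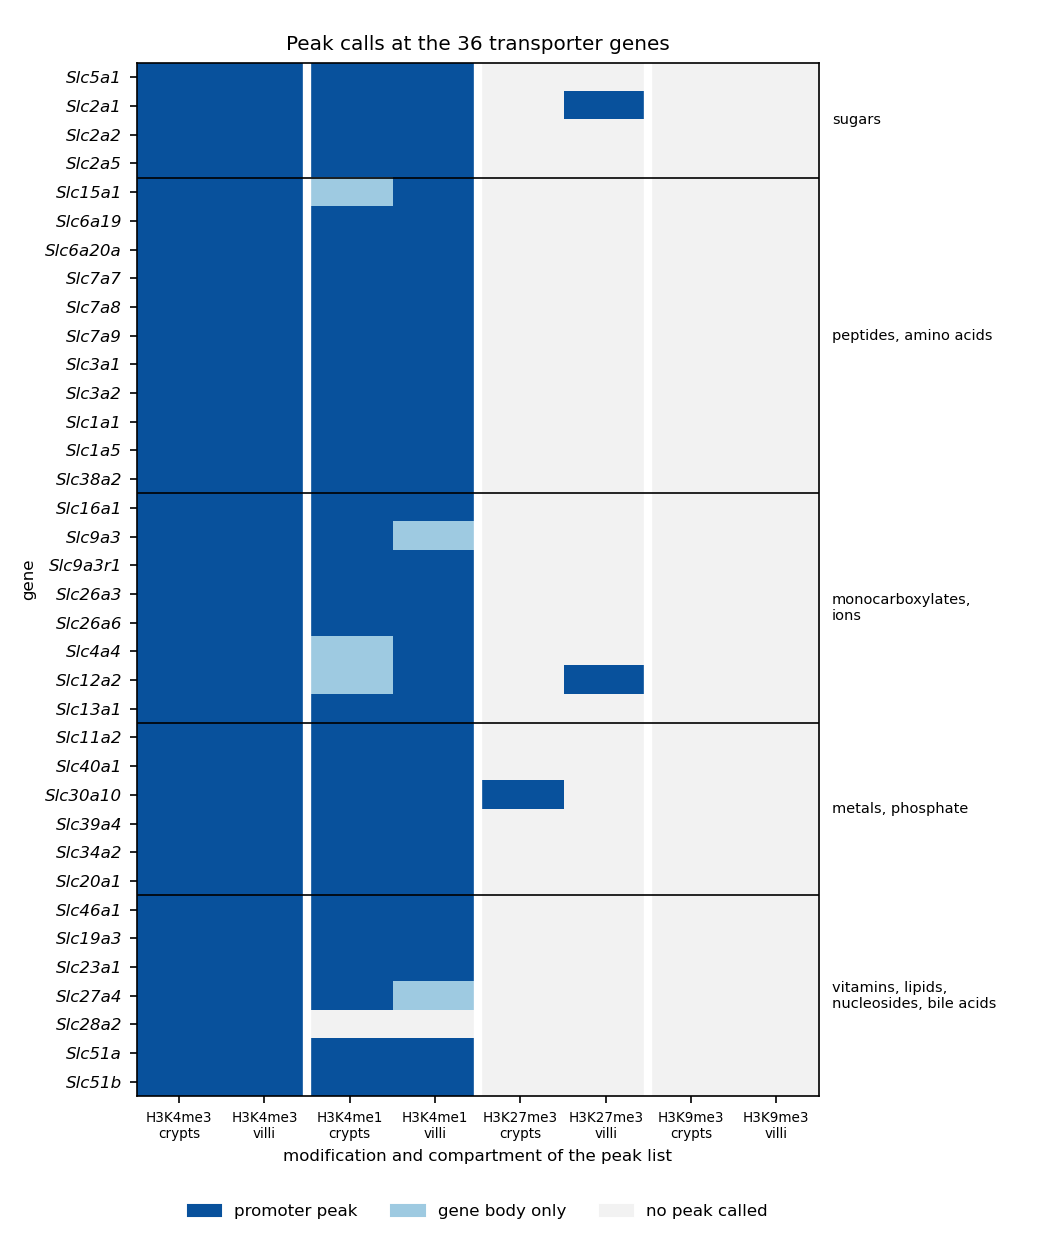
Peak calls at the 36 transporter genes (rows, grouped by what they carry) in the 8 lists (columns, modification and compartment), with a peak within 1 kb of a start site in dark blue, a peak in the gene body only in light blue and no peak in grey. H3K4me3 fills all 36 rows in both compartments, H3K27me3 appears at 1 gene in crypts and 2 in villi, and H3K9me3 at none.

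H3K4me3 peaks reached over more of the transporter genes in villi than in crypts. This compares the width of called peaks without spike-in scaling, not the amount of the mark. By spike-in scaled intensity, the paper reports a drastic decrease in villi of the marks nearer the H3 N-terminus than H3K27me3. It ascribes this decrease to clipping of H3 tails in villi. Peak width and scaled intensity are unlike measures. The quantity compared is the number of bases of the gene region under peaks, given as the log2 ratio of villi over crypts. Its median over the 36 members was 0.22, with quartiles of -0.02 and 0.48. It was 0.15 with only the top 50% of each list by score and 0.12 without the 8 members that overlap another gene, among them Slc7a7 and Slc3a1. In villi 26 members (72.2%) had more bases under H3K4me3, and 10 had fewer. The 225 other solute carriers with a peak in both compartments had a median of 0.01 and 52.0% of them had more bases in villi. Over the 12889 protein-coding genes with a peak in both, the median was -0.03 and the share 41.8%. At least 1.5 times more bases in villi were found at 8 members (background 3.93%), and at least 1.5 times more in crypts at 1 member, Slc12a2 (background 3.34%). Away from start sites, the members held 8 H3K4me3 peaks in crypts and 9 in villi. Of these, 0 were in the top 50% of their list by score. Within the promoter windows alone the median of the members was 0.01 and that of all genes -0.02, but this measure has a ceiling. The windows of Slc2a2, Slc15a1 and Slc9a3r1 were already covered over all 2001 bases in crypts and could not gain.

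For H3K4me1 the median log2 ratio over the gene region was 0.23 for the 35 members with a peak in both compartments, 0.07 for 250 other solute carriers and 0.03 for 13445 protein-coding genes. More bases in villi were found at 24 members (68.6%), against 52.7% of all genes. At least 1.5 times more in villi was reached by 11 members (background 13.3%) and at least 1.5 times more in crypts by 4 (background 13.0%). The count at the higher fold in villi stood above the background share and the count in crypts did not. Inside the promoter windows H3K4me1 went the other way, with a median of -0.14 over 30 members, of which 6 (20.0%) had more bases in villi and 23 fewer. Over all genes in these windows the median was -0.02 and 46.1% had more in villi, and over 19 transport partners, which are genes such as pumps, channels and scaffolds that work beside the carriers, the median was -0.23 and the share 26.3%.

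**Figure D2:**
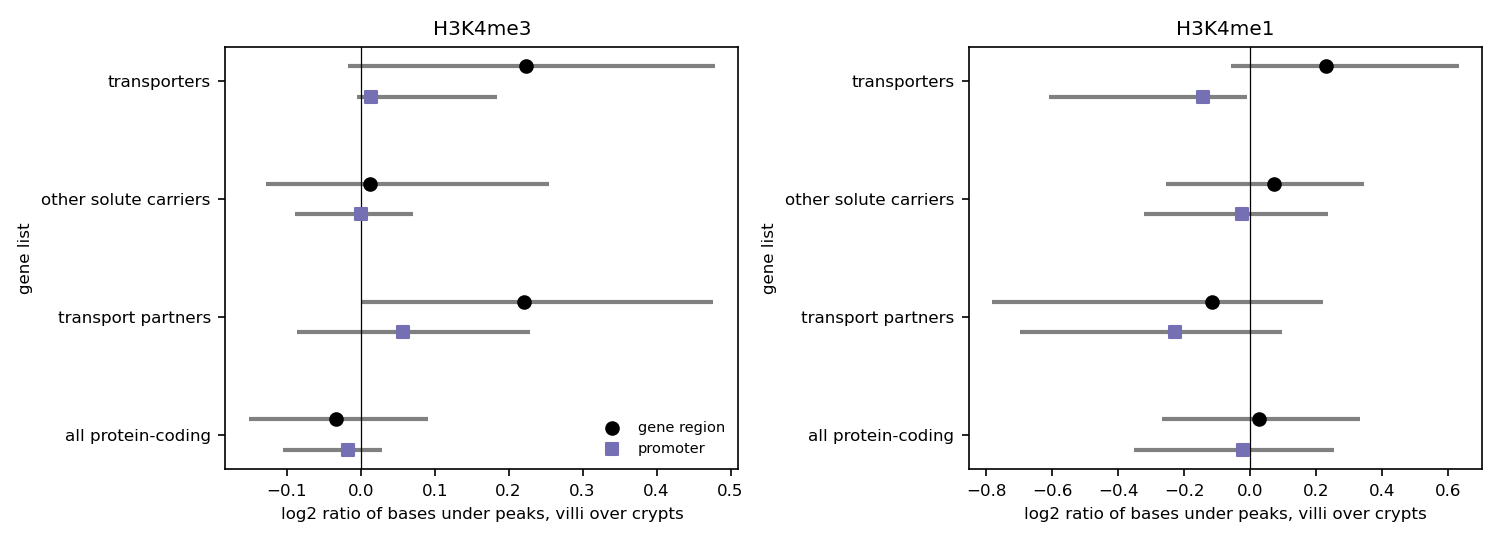
Median (symbols) and quartiles (grey lines) of the log2 ratio of bases under peaks, villi over crypts, for H3K4me3 (left) and H3K4me1 (right) over the gene region (circles) and the promoter windows (squares). For the transporters the gene-region medians are 0.22 and 0.23, whereas the promoter medians are 0.01 for H3K4me3 and -0.14 for H3K4me1.

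Chromatin of whole compartments was used, so a change within enterocytes and a change in the share of enterocytes cannot be told apart. Promoters of all 7 enterocyte markers and all 7 epithelial markers had H3K4me3 in both lists, and of the 5 markers of stem and proliferating cells 5 had it in crypts and 4 in villi. Of the 4 markers of blood cells and lymphocytes none had it in crypts and 3 (Ptprc, Cd3e and Cd8a) had it in villi. Markers of mesenchyme went from 2 to 3 of 5, and those of endothelium were 0 of 2 in both. The part of these other cells in the differences between crypts and villi was not tested.

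The sugar carriers changed little in H3K4me3, with a median log2 ratio of 0.08 over 4 genes. Slc5a1 encodes SGLT1, which brings glucose and galactose into the cell with sodium. The width of its promoter peak was 7812 bp in crypts and in villi it was 10993 bp, which is place 33 of 12613 genes ordered from the widest peak in crypts and place 16 of 12658 in villi. A separate intronic peak of 1148 bp in crypts lay inside the wider villi peak. Slc5a1 had less H3K4me1 in villi, 14024 bases in crypts and 11028 in villi (log2 ratio -0.35). Slc2a5, the fructose carrier GLUT5, had 2733 bases under H3K4me3 in crypts and 2447 in villi (-0.16), although within its promoter window these were 224 and 506. Slc2a2, the basolateral carrier GLUT2, had 4694 and 5027 bases, and its H3K4me1 went from 8975 to 13793 bases (0.62).

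Slc2a1 encodes GLUT1, the glucose carrier of many dividing cells. Its H3K4me3 peak was similar in both compartments, 1793 bp in crypts and 1883 bp in villi, and its start lay under it in each. In villi an H3K27me3 peak of 1446 bp, from 119106881 to 119108326 on chromosome 4, ended at -385 bp relative to the gene start and shared only 29 bases with the H3K4me3 peak. A further H3K27me3 peak of 484 bp lay in an intron, 22041 bp into the gene. Neither was called in crypts. A villi H3K4me1 peak of 831 bp also covered the start, where crypts had none. The printed Slc2a1 promoter itself held no H3K27me3 peak in either list, as the peak stopped short of it.

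Among the 11 peptide and amino acid carriers, the median log2 ratio of H3K4me3 was 0.34 and 8 had more bases in villi. Slc15a1 encodes PEPT1, the proton-coupled carrier of di- and tripeptides. Its bases under H3K4me3 went from 5378 in crypts to 11812 in villi (1.14), which only 0.625% of genes exceeded. The promoter peak measured 5434 bp in crypts and 7434 bp in villi, and villi had 2 additional intronic peaks of 1032 and 3498 bp, 6869 and 8367 bp into the gene. By score these intronic peaks ranked low, at 88.2% and 90.6% of the villi list. Without them, the villi promoter peak covered 7282 bases of the gene region. Of the 6434 bases that carried H3K4me3 in villi only, 99.0% lay under H3K4me1 peaks in crypts. H3K4me1 itself went from 13707 to 20052 bases (0.55), and a villi peak of 2213 bp just upstream of the start was absent from crypts.

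Slc7a7, the light chain y+LAT1 that releases cationic amino acids to the blood, had 5250 bases under H3K4me3 in crypts and 9056 in villi (0.79), and its body overlaps Oxa1l. The villi value of Slc7a7 includes intronic peaks of 419 and 2777 bp, at ranks 90.7% and 77.8% of the list. Slc3a1, the rBAT subunit of the cystine carrier, had 3167 and 4804 (0.60) in a body that overlaps Prepl, and its partner subunit Slc7a9 had 3518 and 4348 (0.31). Slc3a2, the heavy chain that pairs with Slc7a7 and Slc7a8, had 5606 and 7113 (0.34). Slc7a8 had 2959 and 3772 (0.35). These paired subunits thus each had more bases under H3K4me3 in villi, as did 72.2% of all 36 members. Slc6a19 encodes B0AT1, the main carrier of neutral amino acids in the brush border. Its H3K4me3 width changed little, from 6163 to 6829 bp, whereas its H3K4me1 went from 3910 to 11998 bases (1.62), of which a villi peak of 7169 bp without a counterpart in crypts made the most. Slc6a20a, a carrier of proline, overlaps Ccr9, whose start also lies in its promoter window.

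The remaining 3 carriers of this group had fewer bases under H3K4me3 in villi. Slc1a5, which carries glutamine and is prominent in dividing cells, had 3842 bases under H3K4me3 in crypts and 2863 in villi (-0.42), and its H3K4me1 went from 6255 to 4126 bases (-0.60). Slc1a1, the glutamate and aspartate carrier EAAT3, had 3163 and 2941 bases of H3K4me3 (-0.10). Slc38a2, a glutamine carrier induced by amino acid shortage, had 4611 and 4350 (-0.08). The differences of Slc1a1 and Slc38a2 were small beside that of Slc1a5.

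**Figure D3:**
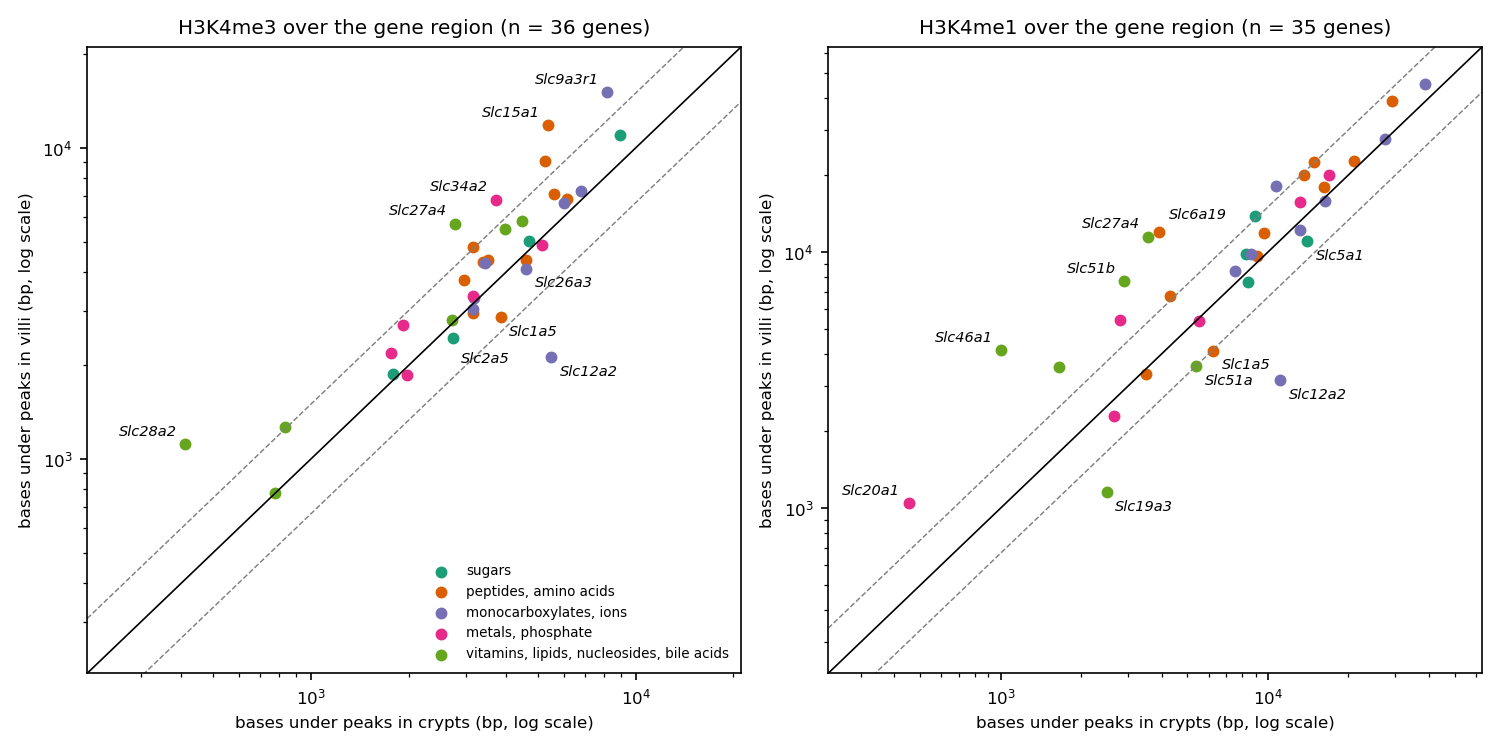
Bases of the gene region under H3K4me3 peaks (left, 36 genes) and H3K4me1 peaks (right, 35 genes) in crypts (x axis, bp, log scale) and villi (y axis, bp, log scale), 1 point per gene coloured by what it carries, with equality as a solid line and 1.5-fold differences dashed. Slc12a2 lies far below the line in both panels, and Slc15a1, Slc27a4, Slc9a3r1 and Slc34a2 lie above the upper dashed line for H3K4me3.

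The 8 genes for monocarboxylates and ions had a median log2 ratio of 0.07 for H3K4me3 and held its lowest value, that of Slc12a2. Slc9a3 encodes NHE3, the sodium/proton exchanger of the brush border, and Slc9a3r1 its scaffold. The promoter peak of Slc9a3r1 spanned 6057 bp in crypts and 13832 bp in villi, from 115161128 to 115174959 on chromosome 11, the 2nd widest of 12658 genes. Bases under H3K4me3 went from 8176 to 15069 (0.88), all 6893 villi-only bases lay under H3K4me1 in crypts, and the villi peak took in the place of 2 small intronic crypts peaks of 434 and 606 bp. H3K4me1 over Slc9a3r1 stayed nearly the same, 16338 and 15790 bases, most of them in a block that was 19917 bp long in crypts and 19692 bp long in villi. At Slc9a3 the promoter H3K4me3 peak measured 6803 bp in crypts and, in villi, 7258 bp. Its H3K4me1 peak of 972 bp over the start was called in crypts only, while over the gene H3K4me1 went from 10713 to 18047 bases (0.75).

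Slc12a2 encodes NKCC1, the basolateral cotransporter that loads cells with chloride for secretion, and differed in direction from most of the list. In crypts 1 H3K4me3 peak of 5598 bp ran from -1101 to 4496 bp relative to the start. In villi 2 peaks of 701 and 1421 bp remained on either side of the start, and neither covered it. Bases under H3K4me3 went from 5497 to 2122 (-1.37), a lower ratio than at 99.7% of genes, and the widest peak moved from place 195 to place 9076 among genes. That place counts the widest single peak, and the villi call is split. By score, the best promoter H3K4me3 peak of Slc12a2 changed little in rank, 42.6% of the crypts list and 46.4% of the villi list. H3K4me1 went from 11119 to 3152 bases (-1.82), although a villi peak of 2247 bp reached into the promoter window, where crypts had none. Villi also had 2 H3K27me3 peaks that crypts lacked, of 474 bp from 832 bp after the start and of 1942 bp from 3308 bp after it. The smaller lay wholly under both H3K4me3 and H3K4me1, and it is this peak, reaching only just into the promoter window, that gave the promoter call. Its rank from the highest score was 79.7% of its list.

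Of the other ion carriers, Slc26a3, the chloride/bicarbonate exchanger DRA, had 4608 and 4092 bases under H3K4me3 (-0.17). Slc4a4, the sodium bicarbonate cotransporter, had 3188 and 3297, and a villi H3K4me1 peak of 808 bp ended at -151 bp relative to its start. The rank of its H3K4me3 promoter peak went from 16.4% of the crypts list to 37.4% of the villi list. Slc26a6, a related anion exchanger, had 6001 and 6665 bases, Slc13a1, which takes up sulfate, 3431 and 4264, and Slc16a1, the lactate carrier MCT1, 3161 and 3033. In bases under H3K4me3 these changes were smaller than those of Slc9a3r1 and Slc12a2.

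**Figure D4:**
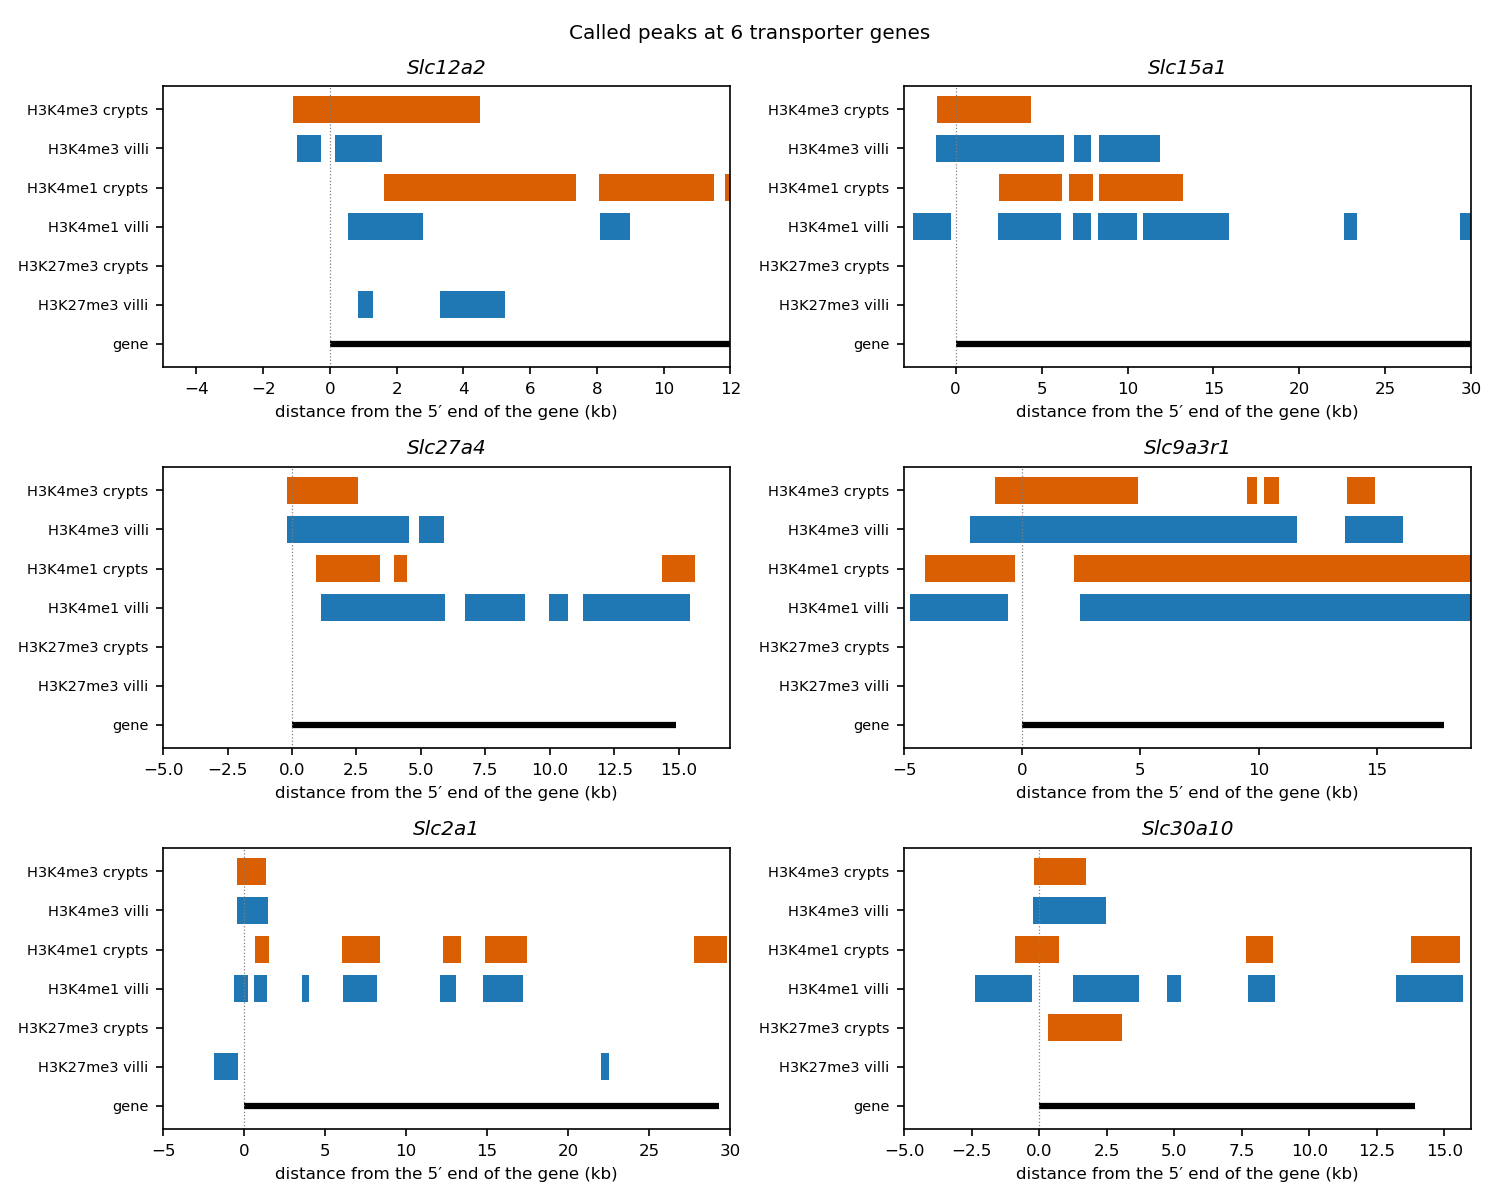
Called peaks of H3K4me3, H3K4me1 and H3K27me3 in crypts (orange) and villi (blue) at 6 transporter genes, by distance from the 5′ end of the gene in kb along its strand, with the gene as a black bar and peaks past the edge cut off. The H3K4me3 peak of Slc12a2 is wide in crypts and split in villi, whereas those of Slc15a1, Slc27a4 and Slc9a3r1 are wider in villi, and H3K27me3 is seen in villi at Slc12a2 and Slc2a1 and in crypts at Slc30a10.

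For metals and phosphate, the median log2 ratio of H3K4me3 was 0.20 over 6 genes. Slc30a10 encodes the manganese exporter. It was the only member with H3K27me3 in crypts, a peak of 2733 bp from 185455187 to 185457919 on chromosome 1, which began 339 bp after the start and shared 1392 bases with the H3K4me3 peak. That peak was absent from villi, where H3K4me3 extended from 1929 bp to 2695 bp (0.48) and moved from rank 56.6% to 31.2% of its list. H3K4me1 changed in position too. The crypts peak of 1647 bp lay across the start, and in villi peaks of 2126 and 2438 bp lay on either side of it, with 2798 bases in crypts and 5446 in villi over the gene (0.96).

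Slc34a2, the sodium-phosphate cotransporter NaPi-IIb of the brush border, had 3716 bases under H3K4me3 in crypts and 6815 in villi (0.87). Its peak lay at the downstream of its 2 annotated starts, whose promoter is printed above. H3K4me1 covered less of the promoter there in villi, 484 bases against 2001 in crypts. Slc20a1, a phosphate carrier of most cells, had 452 bases under H3K4me1 in crypts and 1043 in villi (1.21), a high ratio from a low level. The iron carriers of the 2 sides of the cell, DMT1 (Slc11a2) at the brush border and ferroportin (Slc40a1) at the basolateral side, had slightly fewer bases of H3K4me3 in villi, 5165 and 4871 for Slc11a2 and 1982 and 1859 for Slc40a1. Slc39a4, the zinc importer ZIP4, had 3159 and 3351.

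The 7 carriers of vitamins, lipids, nucleosides and bile acids had the highest group median for H3K4me3, 0.48, and 6 of them had more bases in villi. Slc27a4 encodes the fatty acid transport protein FATP4. Its bases under H3K4me3 went from 2778 to 5709 (1.04) and its promoter peak from 2778 to 4743 bp. A villi-only intronic peak of 966 bp followed it. H3K4me1 went from 3558 to 11498 bases (1.69), with the crypts peak of 2507 bp that began 924 bp after the start replaced by a villi peak of 4839 bp that began 1114 bp after it. The later beginning of the peak took the Slc27a4 promoter out of the H3K4me1 calls in villi. Unlike at Slc15a1, only 47.0% of the 2933 bases with H3K4me3 in villi only lay under H3K4me1 in crypts.

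Slc28a2, which takes up purine nucleosides with sodium, had 410 bases under H3K4me3 in crypts and 1119 in villi (1.45). Although this was the highest ratio of the list, the peaks were among the weakest, at rank 98.3% of the crypts list and 84.9% of the villi list. They lay at an internal start, 14898 and 14619 bp into the gene, and covered no annotated start. Slc23a1, a sodium-dependent vitamin C carrier that overlaps Paip2, had 835 and 1265 bases (0.60). Slc46a1, the proton-coupled folate carrier, had nearly the same H3K4me3, 2723 and 2800 bases, and the highest H3K4me1 ratio of the list, from 1007 to 4130 bases (2.04), because its upstream H3K4me1 peak of 3468 bp reached 6 bp past the start in crypts and the villi peak of 6844 bp ran on to 3129 bp. Slc19a3, a thiamine carrier, had 779 and 777 bases of H3K4me3 and went from 2492 to 1151 bases of H3K4me1 (-1.11).

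Slc51a and Slc51b encode the subunits of the basolateral bile acid exporter. Slc51a had 3950 bases under H3K4me3 in crypts, in a promoter peak of 1192 bp and a further peak of 2758 bp, and 5502 in villi (0.48) under 1 peak of 5588 bp. Slc51b had 4474 and 5842 bases (0.38). Their H3K4me1 differed in direction, from 5403 to 3593 bases at Slc51a (-0.59) and from 2906 to 7714 at Slc51b (1.41). Both genes overlap a neighbour, Pcyt1a for Slc51a and Rasl12 for Slc51b, and in Slc51b a villi-only H3K4me1 peak of 4000 bp made up most of the increase. Of the 36 members, 8 overlap another protein-coding gene.

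The promoter H3K4me3 peaks of the transporters were wide in both compartments. In the median the widest promoter peak of a member measured 3440.5 bp in crypts and in villi 4289.5 bp, while the medians were 1968 and 1871 bp over all genes with a peak and 1852.5 and 1884 bp over the other solute carriers. Among the widest 5% of genes were 12 of the 36 members in crypts (33.3%) and 15 in villi (41.7%). The transport partners were about as wide, with a median of 3472 bp in crypts, a median of 3630 bp in villi and shares of 33.3% and 34.6% in the widest 5%. Taking the wider of the 2 compartments, the 5 members with the widest peaks were Slc9a3r1, Slc5a1, Slc15a1, Slc9a3 and Slc6a19. The narrowest peaks were those of Slc28a2 in crypts, with 410 bp, and of Slc19a3 in villi, with 777 bp.

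The rank of the best promoter H3K4me3 peak in its list, by the authors' score and counted as a percent from the highest, also differed between the compartments. The median rank of the members was 43.3% in crypts and 33.7% in villi, and 25 of 36 members (69.4%) stood higher in the villi list, against 53.2% of 12381 genes. A rise of at least 20 percentage points was found at 8 members (22.2%), against 3.36% of genes, and a fall of that size at 2 members (5.56%), against 2.44%. Of 24 transport partners, 16 (66.7%) stood higher in the villi list and 7 (29.2%) moved up by at least 20 points. Slc6a19 went from 48.8% to 7.70%, Slc2a2 from 65.0% to 39.6%, Slc7a7 from 42.6% to 8.68%, Slc34a2 from 66.3% to 33.7% and Slc15a1 from 53.3% to 20.9%. Slc1a5 went from 23.5% down to 52.3%. The score depends on the depth of each library, which is unknown from the lists, so ranks rather than scores were set side by side, in lists of 16489 peaks in crypts and 16977 in villi. A difference in rank is therefore one of position in the list, not of signal. For H3K4me1, 13 of 30 members (43.3%) stood higher in the villi list, against 54.0% of genes.

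**Figure D5:**
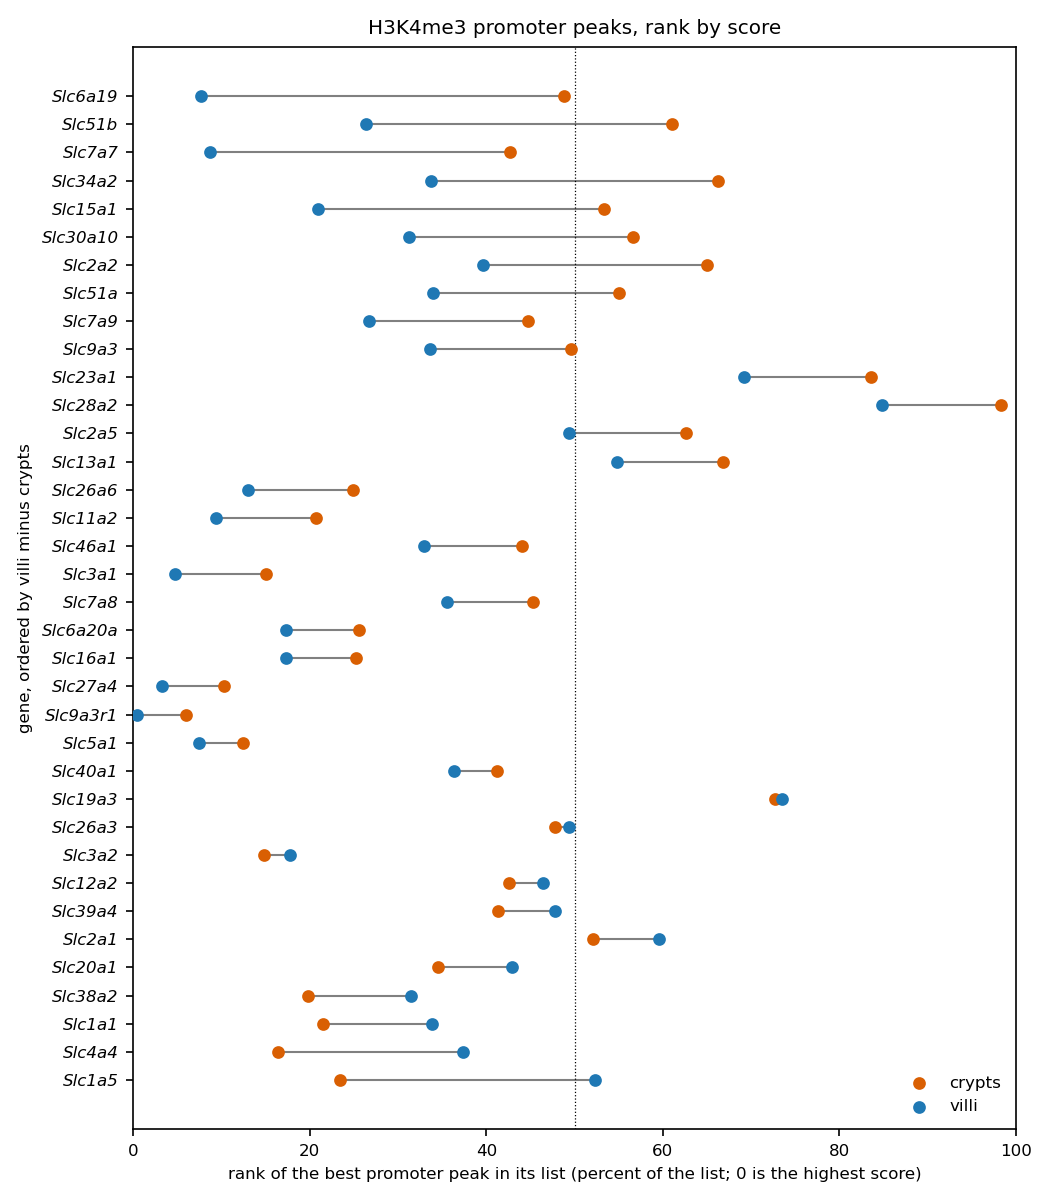
Rank of the best promoter H3K4me3 peak of each transporter in the crypts list (orange) and the villi list (blue), in percent of the list with 0 as the highest score, ordered by villi minus crypts, with a dotted line at 50%. The largest rise is that of Slc6a19, from 48.8% to 7.70%, and the largest fall that of Slc1a5, from 23.5% to 52.3%.

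H3K4me1 peaks inside the transporter genes, away from their starts, were more numerous in villi. The members held 92 such peaks in crypts and 128 in villi, and all genes together 20441 and 22436. In crypts 8 of them (8.70%) had no counterpart in villi, and in villi 35 (27.3%) had none in crypts. Over all genes these shares were 17.6% and 22.5%, over the other solute carriers 17.1% and 17.2%, and over the transport partners, with 68 and 72 peaks, 30.9% and 23.6%. Slc15a1 had 5 in crypts and 10 in villi, Slc3a1 3 and 9, Slc2a2 3 and 6, and Slc4a4, the longest member, 15 and 18. Villi peaks without a counterpart in crypts numbered 3 at Slc15a1, 3 at Slc3a1, 3 at Slc2a2 and 4 at Slc4a4. The other villi peaks overlapped a crypts peak, and 1 crypts peak can meet several villi peaks. The exceptions to the higher number in villi included Slc12a2, with 3 in crypts and 1 in villi, and Slc34a2, with 3 and 2.

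Bases that carried H3K4me3 in villi only amounted to 40984 over the 36 members, and those with H3K4me3 in crypts only to 7588. The totals were 78938 and 44854 over the other solute carriers, 33019 and 6751 over the transport partners, and 3125694 and 2712108 over all genes. Of the villi-only bases 82.0% lay under H3K4me1 peaks in crypts. The same share was 77.8% over all genes and 80.4% over the other solute carriers, so it is near the background. Slc9a3r1, Slc15a1, Slc7a7, Slc34a2 and Slc27a4 held the most of these bases.

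Motifs were searched in the 29 promoter windows on both strands. TATAAA was found in 4 (13.8%) against 12.9% of 16515 windows, AGATAA, which GATA factors can bind, in 4 (13.8%) against 9.71%, and CACGTG, an E-box, in 5 (17.2%) against 8.08%. The windows with CACGTG were those of Slc5a1, Slc16a1, Slc9a3, Slc20a1 and Slc51a, the last with 3 matches. TGATGNAA was found in 1 window (Slc7a7, 3.45% against 3.52%), CAAAGTCCA, an HNF4 motif, in 1 (Slc3a1, 3.45% against 0.448%), and TTTATGG, a CDX motif, in 0 against 2.34%. These counts are small and describe letters in a window, not binding. The 14 members with fewer CG than the median of 14 had a median H3K4me3 log2 ratio of 0.35, and the 15 others had 0.09. Across the 29 members, Pearson's r between CG number and this ratio was -0.25 and Spearman's rho -0.23, a weak relation across genes of the same libraries.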

How the data were processed

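ChIP-seq peak lists of crypts and villi for H3K4me3, H3K4me1, H3K27me3 and H3K9me3 were used, 8 of the 12 libraries. No use was made of the H3K9me2 lists or of spike-in scaled tracks. Per the paper's methods and the labels, the authors used Bowtie 1.1.2 for alignment to mouse (mm10) and fly (dm6), discarded duplicates, and ran MACS2 2.1.1 on the libraries for peaks at a p-value threshold of 1e-10. Scaling to the spike-in was applied to the tracks made with deepTools 3.1 and does not enter the calls. The deposited score was read as the −log10 p-value of the authors' peak caller, since it was at least 10 in every list, although a −log10 q-value cannot be told apart from it. The lists hold no read counts, so depth is unknown, and a missing call can reflect low depth.

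Peaks were overlapped with genes of GENCODE M21 on GRCm38, the assembly that mm10 names, with bedtools 2.31.1. Values were computed with Python 3.11.15, pandas 2.3.3 and NumPy 2.4.6, correlations with SciPy 1.17.1, and figures with Matplotlib 3.10.9. The code was tested on 200 simulated peaks planted at known genes, all of which it found. Members were compared with the 335 other genes named Slc, 30 transport partners and all protein-coding genes. The members and lists were chosen with earlier results of these data known. Values are given for members whose promoter call differs, those with H3K27me3 or H3K9me3, the 5 highest and 5 lowest ratios and the 5 widest H3K4me3 peaks, and other members were named for their role. No test between compartments was made. Alternatives were windows of 500 bp and 5 kb, an overlap of 200 bp, the top 50% of each list by score, the 5′ end of each gene alone, and merging of peaks under 1 kb apart. Promoter sequences came from RefSeq, with 29 of 36 members matched. No window was used for Slc1a5, Slc12a2, Slc11a2, Slc40a1, Slc39a4, Slc23a1 and Slc13a1.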

Additional observations from a re-analysis of the deposited data

How the results depend on the processing

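Of 160 values recomputed under 6 other settings and 2 more chosen after seeing the data (the full width of each peak, and leaving out members that overlap another gene), 139 stayed within the margin set for them and 21 moved. Counts within the margin could still fall. With the top 50% of each list, H3K4me3 promoter calls fell from 36 to 24 in crypts and 30 in villi. With the 5′ end alone they fell to 31 in each. With the top 50%, H3K4me1 promoter calls fell from 32 in crypts and 33 in villi to 22 in each. No median changed its sign. For the counts of calls, the shares over all genes at these settings are not given, so they have no background. The median log2 ratio of H3K4me3 bases fell from 0.22 to 0.15 with the top 50% of each list by score and to 0.12 without members that overlap another gene. With the top 50% of each list, H3K4me3 promoter calls were in villi only at 7 members and in crypts only at 1, those of H3K4me1 at 6 and 6, and H3K27me3 was called in villi at 1 promoter, in villi only at 1, and over 1 gene region. H3K4me3 together with H3K27me3 was then found at 0 promoters in crypts and 0 in villi. With the window of 500 bp, H3K4me3 was called in villi only at 2 members and H3K4me1 in crypts only at 4. With the window of 5 kb, H3K4me1 was called in crypts only at 0 and in villi only at 0. Both the window of 500 bp and an overlap of at least 200 bp lowered the villi H3K27me3 promoters to 1, those in villi only to 1, and those with H3K4me3 to 1, because the promoter call of Slc12a2 was lost. No paired analysis was possible because each group holds 1 library. With unknown depth, a gene without a peak cannot be called free of the mark.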

Other observations

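Genes that work beside these carriers but are not among them were read in the same way. The 30 transport partners had a median H3K4me3 log2 ratio of 0.22 over the 25 with a peak in both compartments, and 19 of these had more bases in villi. Cftr, the chloride channel of the apical membrane, had 7773 bases under H3K4me3 in crypts and 2855 in villi (-1.44), and its H3K4me1 went from 30989 to 18000 bases (-0.78). Slc12a2, the carrier that supplies chloride for secretion through Cftr, had a log2 ratio of -1.37 for H3K4me3 in the same lists. Abcg5 and Abcg8, which together pump sterols back into the lumen, had 5369 and 9329 bases (0.80) and 6003 and 9530 bases (0.67). Pdzk1, a scaffold of the brush border like Slc9a3r1, had 4742 and 6600 (0.48). Fabp6, the bile acid binding protein of the ileum, had 719 and 1815 (1.34). Clca4a had no H3K4me3 peak in crypts and 3308 bases in villi. For H3K4me1 the partners had a median of -0.11 over 26 genes, unlike the 0.23 of the transporters, a difference that was not tested.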
